A study of Mus musculus with 18 samples.

Results

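The protein-coding genes of the Hox clusters were followed through differentiation of mouse embryonic stem cells toward primordial germ cell-like cells (PGCLCs), in wild type and in cells lacking the 3 Tet genes. The members were every gene whose symbol is Hoxa, Hoxb, Hoxc or Hoxd followed by a number: 39 of the 25239 genes of the count table. All cells descended from the E14Tg2a stem cell line. Tet1, Tet2 and Tet3 encode the dioxygenases that oxidise 5-methylcytosine, and in the Tet1-/-, Tet2-/-, Tet3-/- triple knockout (TKO) cells, which by the study's methods were 1 clone, their open reading frames were excised with CRISPR/Cas9. Stem cells had been kept with LIF and kinase inhibitors and were turned into epiblast-like cells (EpiLCs, day 0) with Activin A and Fgf. These were aggregated in suspension in GK15 medium, either with the PGC-promoting cytokines (BMP4, BMP8a, SCF, LIF and EGF) or without them. Total RNA depleted of ribosomal RNA was sequenced from 9 groups of 2 libraries each: EpiLCs, day 2 aggregates without cytokines, and day 6 aggregates without and with cytokines in both genotypes, and TKO day 2 aggregates with cytokines. Wild-type day 6 cells with cytokines were, by the study's methods, sorted for SSEA1 and CD61, while the labels call every day 6 sample aggregates. In comparisons that involve that group, sorting cannot be told apart from cytokines or from genotype.

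Hox proteins are homeodomain transcription factors that assign identity along the head-to-tail axis. Mammals carry 4 clusters, and a gene's number gives its place in the cluster: low numbers lie at the 3′ end of the cluster and are switched on earliest and furthest forward, high numbers lie at the 5′ end and are switched on last and toward the tail. Retinoic acid, Wnt and Fgf signals and the Cdx factors act on this order, and Polycomb complexes keep the clusters silent in pluripotent cells. Repression of somatic Hox genes is a known feature of primordial germ cell specification.

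In GRCm38 (GENCODE M21) the 11 Hoxa genes lay on chromosome 6, the 10 Hoxb genes spanned chr11:96194316-96368256 (173.9 kb), the 9 Hoxc genes chr15:102921103-103036852 (115.8 kb) and the 9 Hoxd genes chr2:74668310-74765142 (96.8 kb). Paralogs 1 to 3 are called anterior here (8 genes), 4 to 8 central (15 genes) and 9 to 13 posterior (16 genes). Levels are normalised counts, that is, the deposited counts divided by DESeq2 size factors, and are comparable between groups for 1 gene but not between genes. Of the 39 genes, 30 had enough counts to be tested. Hoxa13, Hoxb5, Hoxb6, Hoxc5, Hoxc8, Hoxc10, Hoxc11, Hoxc12 and Hoxd10 did not, and these 9 were at 0 to 16.8 normalised counts in every library. A gene counted as changed when its adjusted p was under 0.05 and its log2 fold change was above 2 or below -2 (edgeR quasi-likelihood test, Benjamini-Hochberg adjustment over the 16582 genes tested). Where 1 group was at or under 3 counts per library, the fold is a lower bound against that floor.

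Libraries held 11286050 to 41257861 counts, of which the ribosomal RNA gene Rn45s took 16.2% to 47.6%, and the 39 Hox genes together held 46 to 10644 counts in a library. The study describes the 2 libraries of a group as biological replicates, the labels do not say whether they came from separate cultures, and the p-values measure the spread between these libraries. The wild-type day 6 libraries without cytokines differed from each other most visibly in regional markers: Wnt3a was at 0.907 and 835 and Otx2 at 10.4 and 594. Counts of the deleted genes are given first. Tet3 was lower in both TKO libraries than in both wild-type libraries of each matched pair of groups, for example 252 and 237 against 5849 and 3466 at day 6 without cytokines (log2 fold change -4.23 ± 0.33 (SE), adjusted p = 7.45e-08). Tet1 was lower in EpiLCs (737 and 967 against 6227 and 6036) but its levels overlapped at day 2 (1937 and 1200.3 against 2028 and 1754) and at day 6 without cytokines (998 and 737 against 1304 and 595). Tet2 was lower in TKO at day 6 with cytokines (log2 fold change -4.04 ± 0.48 (SE), adjusted p = 6.46e-05) and not at day 2 without them (355 and 405 against 287 and 200.4). Counting covered all exons of a gene, including those outside the excised reading frames, so the remaining Tet counts do not check the deletion. Which exons they came from was not tested. The study reports from RT-qPCR that each Tet mRNA was lost in stem cells carrying the matching deletion.

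The Hox clusters showed 3 states in these cells. Wild-type aggregates without cytokines raised anterior Hoxa and Hoxb genes to high levels and kept posterior genes at or near 0. TKO aggregates, with or without cytokines, carried low counts of genes from all 4 clusters and all 3 classes. Wild-type PGCLCs had a fainter form of the second pattern. The summed level of the 39 genes was 73.9 and 36.1 in the 2 wild-type EpiLC libraries, 2138 and 1381 at day 2 and 4825 and 3078 at day 6 without cytokines, and 179 and 256 at day 6 with cytokines. In TKO it was 121 and 88 in EpiLCs, 596 and 529 at day 2 without cytokines, 708 and 576 with them, 1192 and 878 at day 6 without cytokines and 1211 and 1145 with them. So the wild-type cells without cytokines held the most Hox RNA at both times, and the TKO day 6 groups came next.

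**Figure D1:**
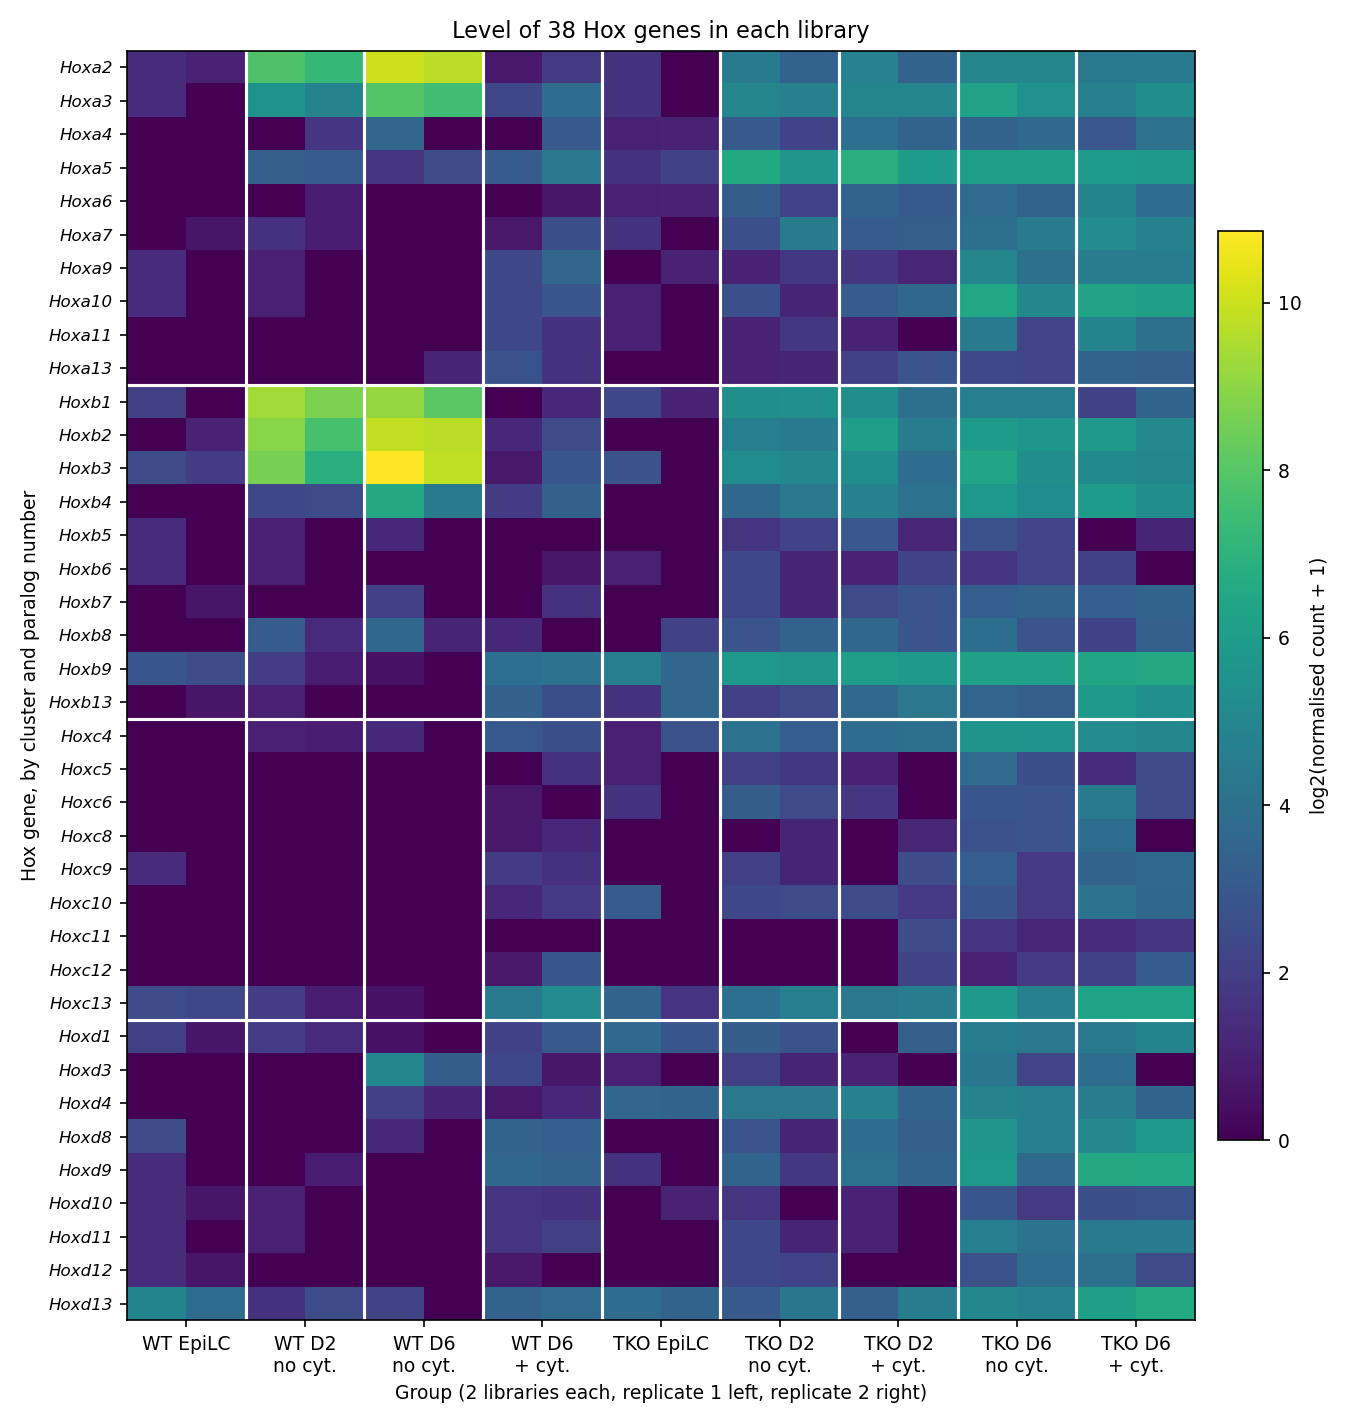
Level of 38 of the Hox genes in each of the 18 libraries, as log2(normalised count + 1), with genes ordered by cluster and paralog number and 2 columns per group. The bright block of Hoxa2, Hoxa3 and Hoxb1 to Hoxb3 is in the wild-type groups without cytokines, and the broad dim signal across all 4 clusters is in the TKO groups at day 6.

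The number of genes involved ran the other way. A Hox gene is called detected here when its normalised count was 10 or more in both libraries of a group. By this measure 1 gene was detected in wild-type EpiLCs, 6 at day 2 and 6 at day 6 without cytokines, and 3 at day 6 with cytokines. In TKO cells 2 were detected in EpiLCs, 10 at day 2 without cytokines and 11 with them, 21 at day 6 without cytokines and 24 with them. All 6 detected in wild type at day 2 were anterior, and at day 6 without cytokines 5 were anterior and 1, Hoxb4, was central. In TKO cells at day 6 with cytokines 6 were anterior, 7 central and 11 posterior. A single library could alter these counts: 10 genes passed in wild type at day 6 without cytokines when replicate 2 was left out, 7 with cytokines without replicate 1, 5 in TKO EpiLCs without replicate 2, and 18 in TKO day 2 aggregates with cytokines without replicate 2. In each of these cases both TKO groups at day 6 still had more detected genes than either wild-type group at day 6.

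**Figure D2:**
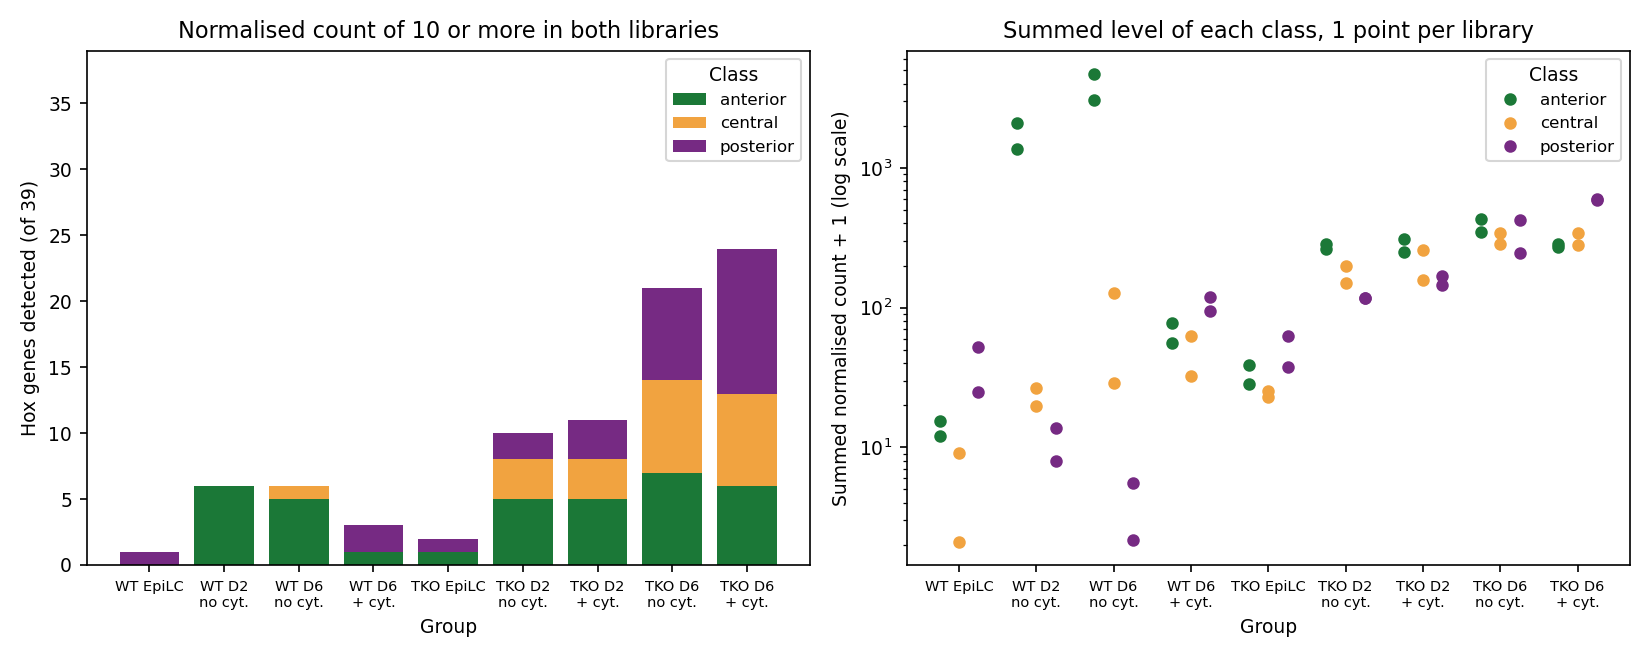
Left, the number of the 39 Hox genes with a normalised count of 10 or more in both libraries of each group, stacked by class. Right, the summed normalised count + 1 of each class in each library on a log scale, where posterior genes fall from EpiLCs to day 6 without cytokines in wild type and are highest in TKO cells at day 6.

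The reference promoter sequence is given for 4 of the genes described below. RefSeq windows (GRCm38.p6, 250 bases before to 50 after a transcript start) were found for 22 of the 39 genes, 24 windows in all. Hoxa2 (chr6:52164782-52165081, minus strand, 9 CpGs) and Hoxb1 (chr11:96365508-96365807, plus strand, 10 CpGs) rose in wild-type aggregates without cytokines, and Hoxd9 (chr2:74697513-74697812, plus strand, 20 CpGs) and Hoxd13 (chr2:74667975-74668274, plus strand, 37 CpGs) were higher in TKO aggregates. They are shown because TET enzymes act on methylated CpG dinucleotides, which are in capitals. Their CpG counts do not stand for their classes: Hoxa3, Hoxd3 and Hoxd1 have windows with 20, 20 and 29 CpGs, while Hoxa9 and Hoxd12 have 4 and 13, and the 2 windows of Hoxd11 have 4 and 25. Methylation was not measured in these files.
Hoxa2: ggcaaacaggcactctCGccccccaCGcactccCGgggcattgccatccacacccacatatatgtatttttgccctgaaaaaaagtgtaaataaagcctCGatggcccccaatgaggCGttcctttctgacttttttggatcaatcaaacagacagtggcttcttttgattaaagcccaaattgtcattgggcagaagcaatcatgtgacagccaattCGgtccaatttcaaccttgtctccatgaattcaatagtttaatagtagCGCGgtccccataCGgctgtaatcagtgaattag
Hoxb1: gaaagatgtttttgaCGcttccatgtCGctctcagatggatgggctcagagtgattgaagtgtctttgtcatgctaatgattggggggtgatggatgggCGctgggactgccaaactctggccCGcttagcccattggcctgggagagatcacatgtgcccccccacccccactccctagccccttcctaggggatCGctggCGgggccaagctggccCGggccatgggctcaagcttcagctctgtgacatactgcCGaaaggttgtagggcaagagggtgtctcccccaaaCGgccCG
Hoxd9: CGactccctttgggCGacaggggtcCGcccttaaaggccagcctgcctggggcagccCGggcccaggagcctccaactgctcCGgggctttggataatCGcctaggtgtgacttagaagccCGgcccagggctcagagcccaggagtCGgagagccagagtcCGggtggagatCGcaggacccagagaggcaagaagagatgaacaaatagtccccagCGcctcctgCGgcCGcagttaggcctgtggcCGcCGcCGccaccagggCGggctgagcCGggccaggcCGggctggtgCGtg
Hoxd13: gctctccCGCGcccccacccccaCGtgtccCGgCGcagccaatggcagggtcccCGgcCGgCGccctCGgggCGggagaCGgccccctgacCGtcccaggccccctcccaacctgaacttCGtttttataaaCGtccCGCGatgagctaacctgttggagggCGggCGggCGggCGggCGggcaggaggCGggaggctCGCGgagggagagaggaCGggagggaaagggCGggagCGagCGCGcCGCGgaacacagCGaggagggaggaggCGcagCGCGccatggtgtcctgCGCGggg

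The 24 Hox windows had a median of 14.5 CpGs, against 7 in all 32851 windows of that length. The windows were searched for 4 letter patterns on both strands. TGATNNAT, the core of a joint Pbx and Hox element, was in 16.7% of the Hox windows and 8.85% of all windows, and the Hox windows that held it belonged to Hoxa2, Hoxb1, Hoxb8 and 1 of the pair for Hoxd11. AGGTCA, a nuclear receptor half-site, was in 29.2% against 16.3%, TTTATG, which Cdx factors bind, in 20.8% against 11.9%, and the DR5 element of retinoic acid receptors, which holds that half-site at both ends, in 0 of the Hox windows against 0.009%. These matches are descriptions of the letters in the windows.

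In wild-type aggregates without cytokines, the anterior genes of clusters a and b rose first. At day 2, 8 Hox genes were called higher than in EpiLCs and 1, Hoxd13, lower, where 6.80% of all tested genes were called higher and 4.67% lower. They included Hoxa2, Hoxa3, Hoxb1, Hoxb2 and Hoxb3, with Hoxa5 and Hoxb4 at far lower levels. Hoxb1, which specifies hindbrain identity, went from 3.21 and 0 to 656 and 424 (at least 167-fold higher, adjusted p = 2.59e-06). Hoxb2 went from 0 and 1.11 to 484 and 208 (at least 107-fold higher, adjusted p = 3.10e-06), and Hoxa2, which patterns the hindbrain and the second pharyngeal arch, from 1.61 and 1.11 to 228 and 149 (at least 58.2-fold higher, adjusted p = 1.98e-06). Both libraries at day 2 lay far above both EpiLC libraries for each of these 3 genes. Hoxa5 was at 0 in both libraries in EpiLCs and only 8.77 and 7.77 at day 2. No Hoxc gene was called in either direction, and of the Hoxd genes only Hoxd13, a digit and genital gene, moved, from 28.9 and 13.3 to 1.95 and 4.66 (log2 fold change -2.46 ± 0.79 (SE), adjusted p = 0.0248).

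Between day 2 and day 6 genes of paralogs 2 to 4 rose further. In all, 6 genes were called higher and 1 lower (8.51% and 6.02% of all tested genes). Hoxa2 rose to 1056 and 841 (log2 fold change 2.29 ± 0.39 (SE), adjusted p = 2.83e-04). Hoxa3, a gene of the pharyngeal arches and hindbrain, rose from 46.8 and 28 to 245 and 182 (log2 fold change 2.48 ± 0.55 (SE), adjusted p = 0.00214) and Hoxb3 from 399.7 and 118 to 1852 and 894 (log2 fold change 2.38 ± 0.60 (SE), adjusted p = 0.00522). Hoxb4, expressed up to the hindbrain and spinal cord boundary, rose from 3.90 and 4.66 to 91.6 and 20.8 (log2 fold change 3.66 ± 0.78 (SE), adjusted p = 0.00217), though its replicates were far apart. Hoxd3 was listed at 0 in both day 2 libraries and at 32.6 and 8.11 at day 6 (at least 7.75-fold higher, adjusted p = 0.00970), and Hoxd4, listed at 0 at day 2, was called at 3.17 and 1.2, a mean under the floor, so no fold is given. Hoxb2 reached 922 and 850.0, a rise under the fold required (log2 fold change 1.32 ± 0.43 (SE), adjusted p = 0.0247). Hoxb1 did not pass the test, at 656 and 424 and then 562 and 269.8. The count of 7 fell to 4 without day 2 replicate 2 and to 4 without day 6 replicate 1.

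Against EpiLCs, 12 Hox genes were called higher and 3 lower in wild-type aggregates at day 6 without cytokines (16.4% and 10.9% of all tested genes, 27.3% in either direction). Of the 8 anterior genes 7 were called higher, Hoxd1 being the exception. Of the 15 central genes 5 were called higher, and no posterior gene was. The 3 called lower were all posterior: Hoxd13, with 3.63 and 0, Hoxb9, from 6.43 and 5.0 to 0.453 and 0 (at least 2.36-fold lower, adjusted p = 0.00151), and Hoxc13, from 4.82 and 3.89 to 0.453 and 0 (at least 1.80-fold lower, adjusted p = 0.0178). These 3 had the highest means of the Hox genes in wild-type EpiLCs (21.1, 5.71 and 4.36). There, 34 of the 39 genes were at or under 3 counts in both libraries and could hardly be called lower. Which class held the lower calls therefore depended on the starting levels. The summed posterior level was 51.4 and 23.9 in EpiLCs, 12.7 and 6.99 at day 2 and 4.53 and 1.2 at day 6, and the libraries of the 3 groups did not overlap. The calls of Hoxa4, Hoxa5, Hoxb8 and Hoxd4 rested on means of 2.17 to 6.47 normalised counts, and Hoxa4 was at 10.9 and 0, so its counts all came from replicate 1. The count of 15 was 9 without EpiLC replicate 2.

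Per kilobase of exon, which allows genes to be compared, the order in wild-type aggregates at day 6 without cytokines was Hoxb2 (522 and 566 normalised counts per kb), Hoxa2 (474 and 595), Hoxb3 (254 and 526), Hoxb1 (129 and 269), Hoxa3 (70.2 and 94.5) and Hoxb4 (8.12 and 35.7). Hoxb2, Hoxa2 and Hoxb3 overlapped between libraries, as did Hoxb3 and Hoxb1, while Hoxa3 lay below all 4 and Hoxb4 below Hoxa3. At day 2 the order of 5 of these genes had been Hoxb1 (203 and 314), Hoxb2 (128 and 298), Hoxa2 (84 and 129), Hoxb3 (33.5 and 114) and Hoxa3 (10.8 and 18.1). Of these, Hoxa3 was below the other 4 in both libraries, and the neighbours above it overlapped.

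Neural markers also rose in wild-type aggregates without cytokines. All 5 markers of the list, Sox1, Pax6 and Tubb3 among them, were called higher at day 6 without cytokines than in EpiLCs, where 16.4% of all tested genes were, and their summed level went from 524 and 478 to 4801 and 3528 at day 2 and 21774 and 24014 at day 6. It was 464 and 398 in wild-type cells with cytokines and 1478 and 2079.9 in TKO aggregates without cytokines. In wild type without cytokines, 5 of 8 forebrain and midbrain genes were called higher at day 2 than in EpiLCs. None of the 8 was lower (6.80% and 4.67% of all tested genes). At day 6, 5 were higher than in EpiLCs and 1 was lower (16.4% and 10.9%). In bulk samples fewer cells of a type and less RNA per cell cannot be told apart, and the part of cell composition in the Hox levels was not tested.

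**Figure D3:**
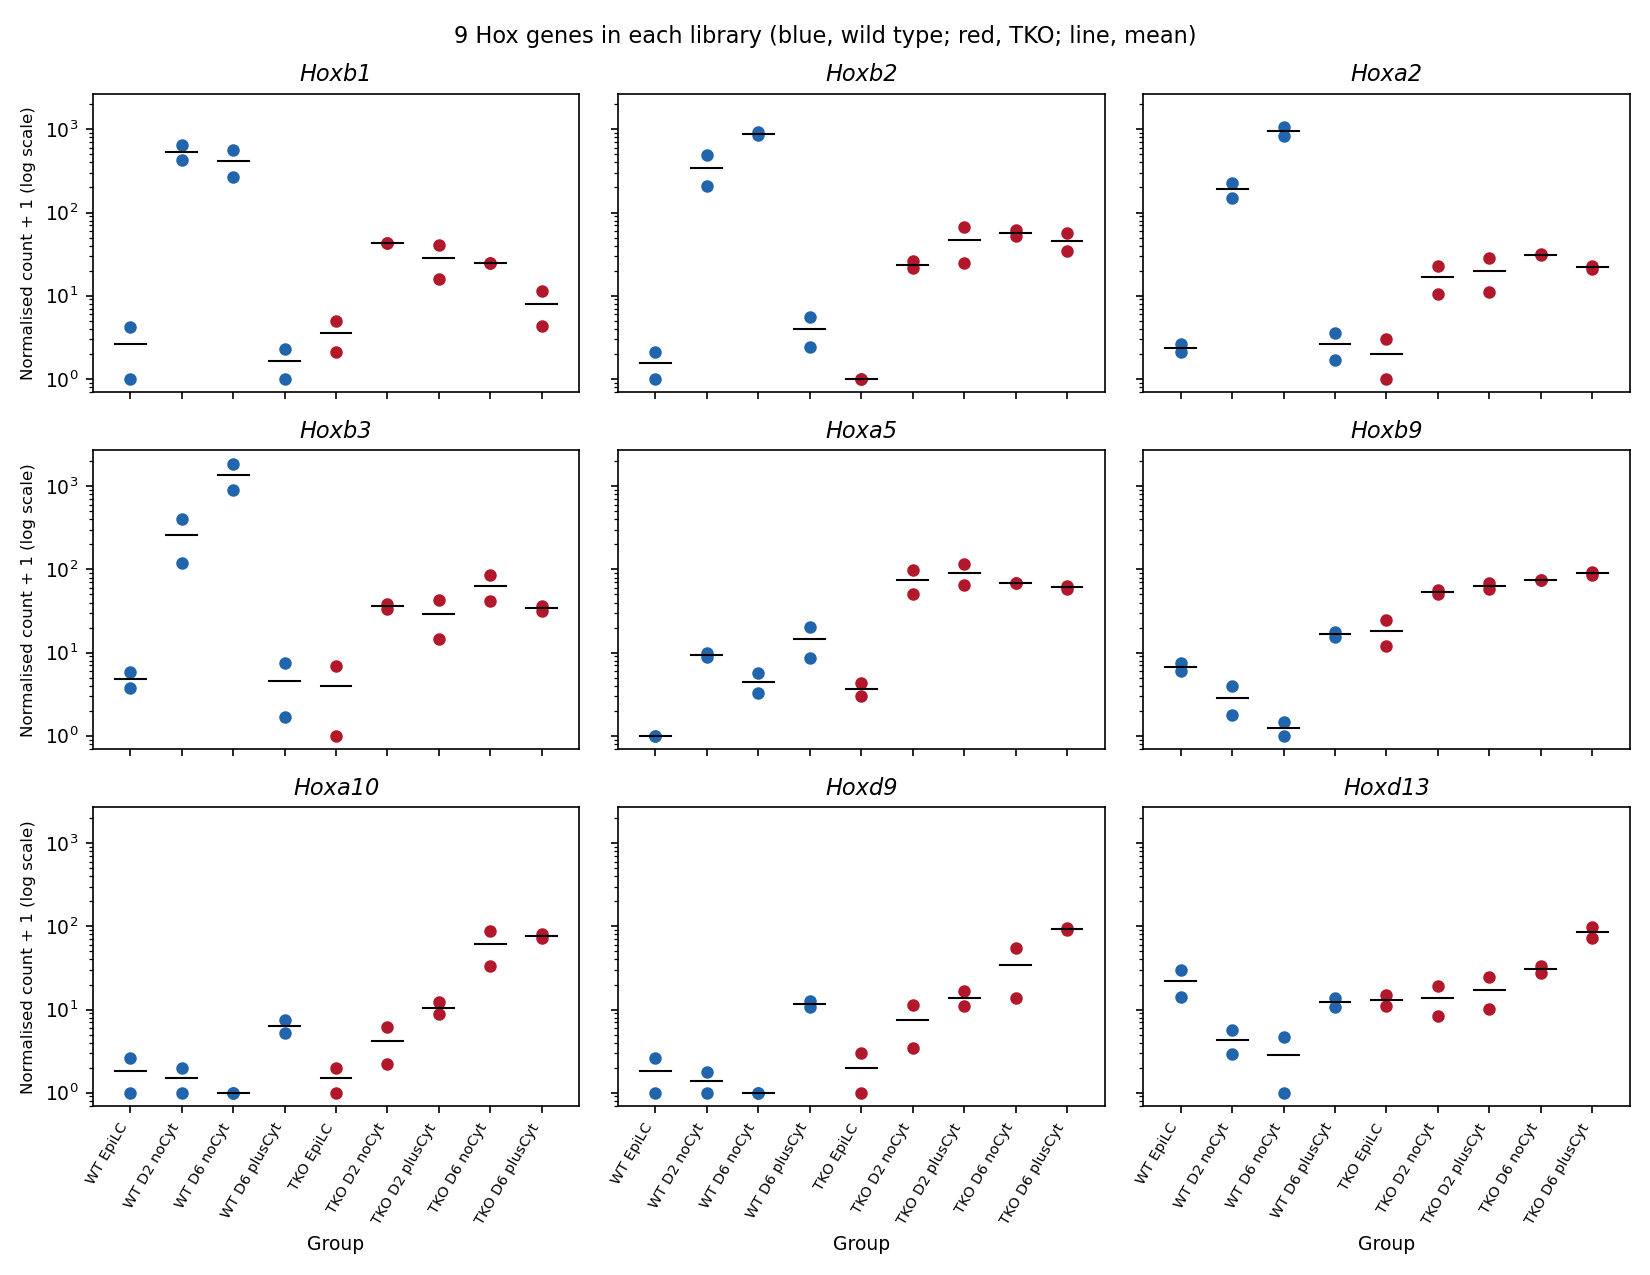
Normalised count + 1 on a log scale for 9 Hox genes in each of the 18 libraries (blue, wild type; red, TKO; black line, mean of the 2 libraries). Hoxb1, Hoxb2, Hoxa2 and Hoxb3 are highest in wild type without cytokines, and Hoxb9, Hoxa10, Hoxd9 and Hoxd13 have their highest mean in TKO day 6 aggregates with cytokines.

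Wild-type cells given cytokines took another course. Against EpiLCs, 10 Hox genes were called higher at day 6 and none lower (7.58% and 3.96% of all tested genes), of which 2 were anterior, 3 central and 5 posterior. With 34 of the 39 genes at or under 3 counts in both EpiLC libraries, few could have been called lower. Hoxc13, known from hair and nail formation, was at 20.2 and 36.7 (log2 fold change 2.76 ± 0.68 (SE), adjusted p = 0.00477) and Hoxd9 at 11.8 and 9.65 (at least 3.31-fold higher, adjusted p = 0.0157). Hoxb9 was at 14.6 and 16.7 against 6.43 and 5.0 and was not called (log2 fold change 1.53 ± 0.51 (SE), adjusted p = 0.0273). These levels were low. The count of 10 was 2 without EpiLC replicate 2, 6 without PGCLC replicate 2, and 2 when a detected level was also asked of the higher group.

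The 2 wild-type day 6 groups differed along the clusters. With cytokines 14 Hox genes were called higher and 8 lower than without them (12.7% and 14% of all tested genes, 26.7% in either direction). Of the anterior genes 6 were lower and 1, Hoxd1, higher, while 9 posterior genes were higher and none lower. The posterior genes had enough counts to be tested only through groups other than wild type without cytokines. The absence of lower calls among them was therefore set in advance. Hoxa2 was at 0.695 and 2.57 with cytokines against 1056 and 841 without (log2 fold change -9.02 ± 0.60 (SE), adjusted p = 1.06e-08), Hoxb1 at 0 and 1.29 against 562 and 269.8 (at least 207-fold lower, adjusted p = 2.92e-07), and Hoxb3 at 0.695 and 6.43 against 1852 and 894 (log2 fold change -8.47 ± 0.87 (SE), adjusted p = 8.51e-07). In the other direction, Hoxc13 was at 20.2 and 36.7 against 0.453 and 0 (at least 11.8-fold higher, adjusted p = 4.40e-05) and Hoxb9 at 14.6 and 16.7 against 0.453 and 0 (at least 6.48-fold higher, adjusted p = 2.34e-05). The count of 22 was 14 without the no-cytokine replicate 1 and 14 without the cytokine replicate 2, and 8, of which 6 lower, when the higher group had to be detected.

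In EpiLCs few Hox genes were called between the genotypes, though TKO levels leaned higher. The summed level was 121 and 88 in TKO and 73.9 and 36.1 in wild type. Fitted log2 fold changes were positive for 20 tested genes and negative for 9, mostly from low counts. Their median was 1.13, against 0.04 over all tested genes. Of the Hox genes 1, Hoxd4, was called higher in TKO and none lower (1.71% and 0.597% of all tested genes). It was at 10.9 and 9.90 in TKO and listed at 0 in both wild-type libraries (at least 3.21-fold higher, adjusted p = 0.00766). The call was lost without wild-type replicate 2 (0 genes called), and 3 and 2 genes were called without TKO replicate 1 and without TKO replicate 2.

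At day 2 without cytokines, TKO aggregates had 4 Hox genes called lower than in wild type and 8 higher (3.08% and 9.43% of all tested genes). The lower genes were 4 of the 8 tested anterior genes, and the higher were 6 of 11 tested central and 2 of 11 tested posterior genes. The posterior genes and Hoxa6, Hoxa7, Hoxc4, Hoxc6 and Hoxd4 had enough counts to be tested only through groups other than wild type without cytokines. The shares of tested genes called higher therefore depend in part on that requirement. The 4 lower were Hoxa2 (21.8 and 9.61 against 228 and 149; log2 fold change -3.58 ± 0.46 (SE), adjusted p = 4.10e-05), Hoxb1 (41.5 and 42.1 against 656 and 424; log2 fold change -3.72 ± 0.55 (SE), adjusted p = 1.35e-04), Hoxb2 and Hoxb3. Hoxb2 was at 24.9 and 20.4 against 484 and 208 (log2 fold change -3.94 ± 0.52 (SE), adjusted p = 6.40e-05) and Hoxb3 at 37.4 and 32.4 against 399.7 and 118 (log2 fold change -2.90 ± 0.66 (SE), adjusted p = 0.00380). The groups did not overlap for any of the 4. Hoxa3 was at 30.1 and 25.2 against 46.8 and 28 and was not called.

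The 8 called higher at day 2 were 6 central genes and the posterior Hoxb9 and Hoxc13. Hoxa5, which acts in the cervical region and the lung, was at 96.5 and 49.3 against 8.77 and 7.77 (log2 fold change 3.10 ± 0.56 (SE), adjusted p = 8.04e-04). Hoxb9, a thoracic gene, was at 55 and 49.3 against 2.92 and 0.777 (at least 19.8-fold higher, adjusted p = 2.33e-05). Hoxd4 was at 18.7 and 19.2 and listed at 0 in both wild-type libraries (at least 7.21-fold higher, adjusted p = 5.45e-04). In each case both TKO libraries lay above both wild-type libraries. Hoxc4 was at 15.6 and 8.41 against 0.975 and 0.777 (at least 4.56-fold higher, adjusted p = 0.00635), Hoxc13 at 14.5 and 24 against 2.92 and 0.777 (at least 7.34-fold higher, adjusted p = 0.00474), and Hoxc6 at 8.30 and 4.81 against 0 (at least 2.49-fold higher, adjusted p = 0.0320). Hoxa6 at 8.30 and 3.60 and Hoxa7 at 5.19 and 20.4 completed the 8. Without wild-type replicate 2 the count of 12 was 7, with 4 lower and 3 higher.

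The genotypes were furthest apart at day 6 without cytokines. TKO aggregates had 20 Hox genes called higher and 4 lower (14.4% and 9.46% of all tested genes). Hoxd1, Hoxa6, Hoxa7, Hoxc4, Hoxc6, Hoxd4, Hoxd8 and the posterior genes had enough counts only through groups other than wild type without cytokines. The share called higher therefore depends in part on that requirement. The 4 lower were the same as at day 2: Hoxa2 (30.2 and 30.3 against 1056 and 841; log2 fold change -4.95 ± 0.46 (SE), adjusted p = 4.26e-07), Hoxb1 (23.7 and 24 against 562 and 269.8; log2 fold change -4.10 ± 0.58 (SE), adjusted p = 2.81e-05), Hoxb2 and Hoxb3. Hoxb2 was at 60.3 and 51.7 against 922 and 850.0 (log2 fold change -3.96 ± 0.49 (SE), adjusted p = 1.22e-05) and Hoxb3 at 85.1 and 40.4 against 1852 and 894 (log2 fold change -4.42 ± 0.67 (SE), adjusted p = 5.71e-05). Hoxa3 was lower by less than the fold required (76.5 and 44.2 against 245 and 182; log2 fold change -1.80 ± 0.53 (SE), adjusted p = 0.00971). Among anterior genes Hoxd1 went the other way, at 22.6 and 18.9 against 0.453 and 0 (at least 8.59-fold higher, adjusted p = 7.93e-04).

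Of the 16 posterior genes, 11 had enough counts to be tested, all of them through their counts in groups other than wild type without cytokines, and 11 were called higher in TKO at day 6 without cytokines. Hoxa10, a gene of the lumbar axis and the reproductive tract, was at 87.2 and 32.8 and listed at 0 in both wild-type libraries (at least 24.8-fold higher, adjusted p = 3.21e-05). Hoxb9 was at 73.2 in both libraries against 0.453 and 0 (at least 30.3-fold higher, adjusted p = 4.74e-07). Hoxd9 was at 53.8 and 12.6 against 0 (at least 13.7-fold higher, adjusted p = 2.48e-04), with its TKO libraries far apart. Hoxa9 was at 30.2 and 15.1 against 0 (at least 9.37-fold higher, adjusted p = 2.52e-04) and Hoxd11, which shapes the forearm and kidney, at 23.7 and 16.4 against 0 (at least 8.29-fold higher, adjusted p = 3.62e-04). Hoxc13 was at 56 and 26.5 against 0.453 and 0 (at least 17.1-fold higher, adjusted p = 2.50e-05) and Hoxd13 at 32.3 and 26.5 against 3.63 and 0 (log2 fold change 3.59 ± 0.79 (SE), adjusted p = 0.00125). Of the central genes 7 were also higher. Among them Hoxa5 was at 67.8 and 66.9 against 2.27 and 4.63 (log2 fold change 4.41 ± 0.62 (SE), adjusted p = 4.13e-05), Hoxc4 at 48.5 and 46.7 against 1.36 and 0 (at least 19.7-fold higher, adjusted p = 3.85e-05) and Hoxa7 at 15.1 and 21.5 against 0 (at least 7.56-fold higher, adjusted p = 5.89e-04). Hoxb4 stood at the turning point of the cluster with 54.9 and 37.9 in TKO and 91.6 and 20.8 in wild type (log2 fold change -0.29 ± 0.63 (SE), adjusted p = 0.724). The summed level of the anterior genes was 429 and 347 in TKO against 4694 and 3049 in wild type, and that of the posterior genes 422 and 245 against 4.53 and 1.2.

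**Figure D4:**
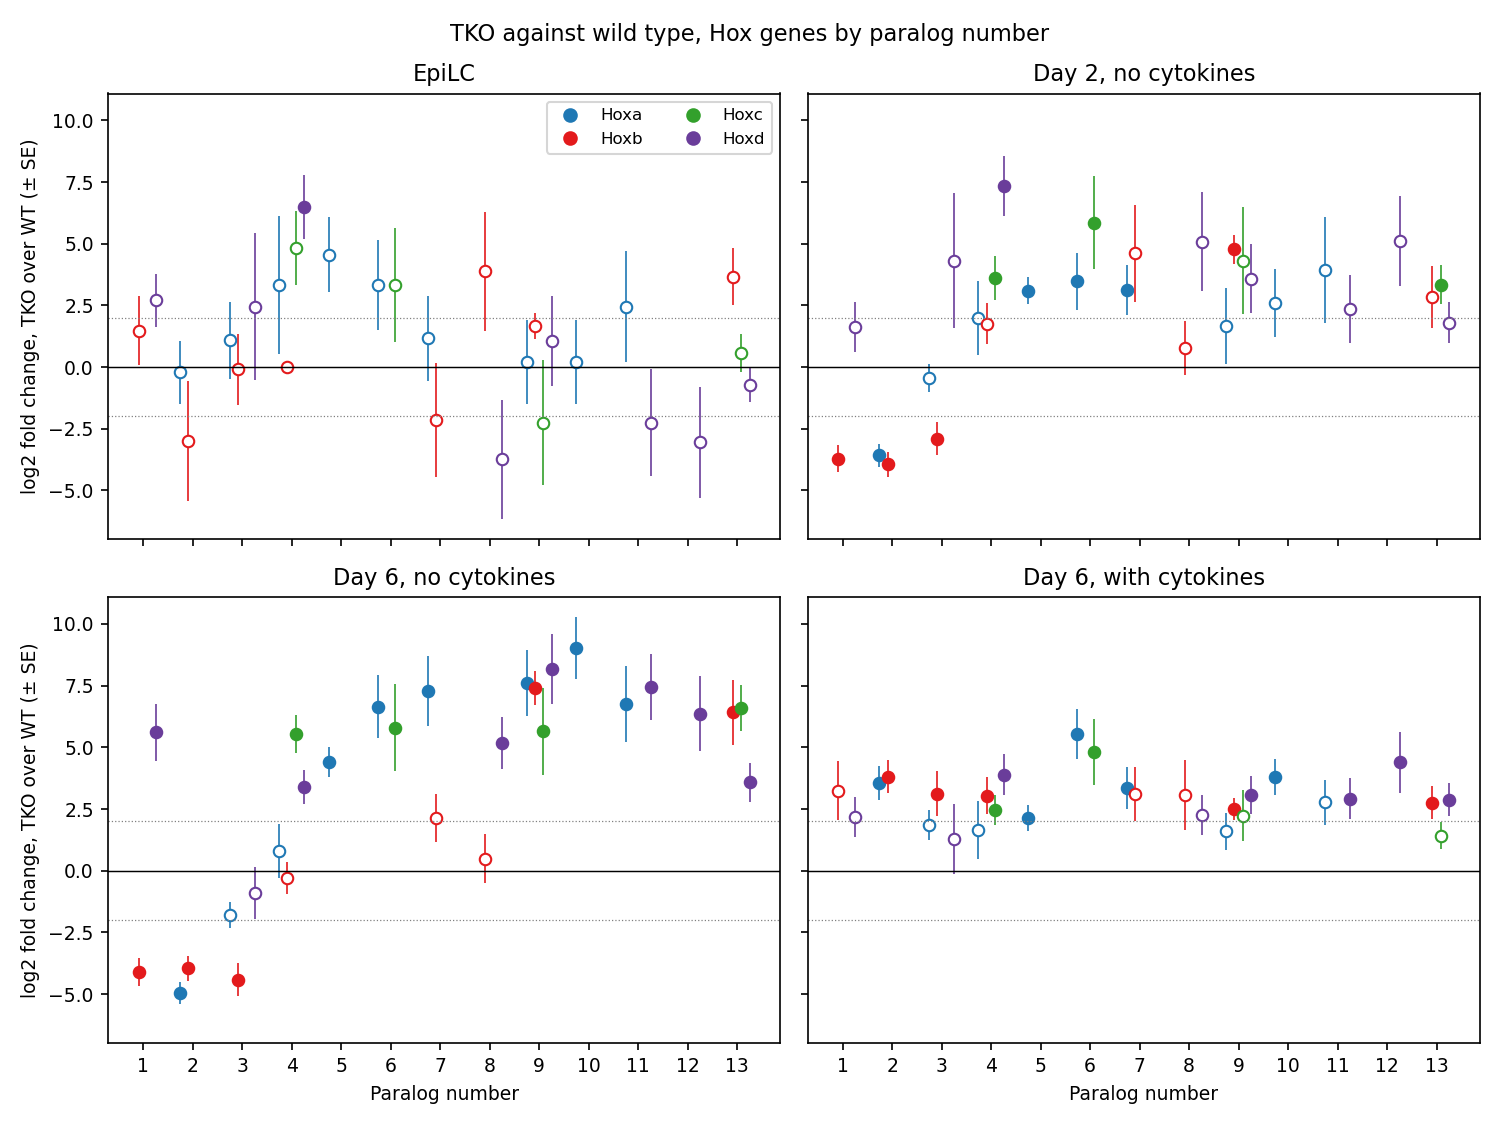
Fitted log2 fold change of TKO over wild type (± SE) for 29 of the tested Hox genes against paralog number, coloured by cluster, in EpiLCs, at day 2 and day 6 without cytokines and at day 6 with cytokines. Filled points were called, dotted lines mark 2 and -2, and fits against a group at 0 depend on the prior count, so their size is not a bound. Without cytokines Hoxa2, Hoxb1, Hoxb2 and Hoxb3 lie below -2 and the posterior genes above 0, whereas with cytokines all 29 fitted values are above 0.

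At day 6 with cytokines, TKO aggregates had 17 Hox genes called higher than wild type and none lower (4.58% and 0.989% of all tested genes, 5.57% in either direction): 3 anterior, 7 central and 7 posterior. Of the 17, Hoxa6, Hoxc6, Hoxd4, Hoxd12 and others were tested only through their counts in groups other than wild type with cytokines. For these the absence of lower calls was set in advance, and the share called higher depends in part on the count requirement. Here Hoxa2, Hoxb2 and Hoxb3, lower in TKO without cytokines, were higher. Hoxa2 was at 20.2 and 21.8 against 0.695 and 2.57 (log2 fold change 3.57 ± 0.68 (SE), adjusted p = 0.00234), Hoxb2 at 55.4 and 33.3 against 1.39 and 4.50 (log2 fold change 3.81 ± 0.67 (SE), adjusted p = 0.00154) and Hoxb3 at 35.3 and 31 against 0.695 and 6.43 (log2 fold change 3.13 ± 0.93 (SE), adjusted p = 0.0283). Both TKO libraries lay above both wild-type libraries for each of the 3. Hoxa10 was at 80.6 and 71.2 against 4.17 and 6.43 (log2 fold change 3.80 ± 0.74 (SE), adjusted p = 0.00305), Hoxd9 at 94.1 and 89.5 against 11.8 and 9.65 (log2 fold change 3.08 ± 0.77 (SE), adjusted p = 0.0132), Hoxd13 at 70.6 and 97.6 against 9.73 and 12.9 (log2 fold change 2.88 ± 0.66 (SE), adjusted p = 0.00734) and Hoxb9 at 85.7 and 93 against 14.6 and 16.7 (log2 fold change 2.50 ± 0.44 (SE), adjusted p = 0.00129). Hoxa6 at 28.6 and 13.8 against 0 and 0.643 (at least 10.5-fold higher, adjusted p = 0.00214), Hoxc6 at 21.8 and 4.59 against 0.695 and 0 (at least 6.58-fold higher, adjusted p = 0.0261), Hoxd12 at 15.1 and 4.59 against 0.695 and 0 (at least 4.91-fold higher, adjusted p = 0.0301) and Hoxd4 at 23.5 and 10.3 against 0.695 and 1.29 (at least 8.43-fold higher, adjusted p = 0.00572) were among those with the largest fitted changes, all from low counts. Hoxc13, among the highest in wild type, was at 77.3 and 76.9 against 20.2 and 36.7 and was not called (log2 fold change 1.43 ± 0.55 (SE), adjusted p = 0.0847). The count of 17 was 4 without wild-type replicate 1 and 6 without TKO replicate 1, and all of these were higher in TKO.

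Within TKO, from EpiLCs to day 6, 21 Hox genes rose without cytokines (7.77% of all tested genes) and 23 with them (6.93%), and none fell (0.844% and 2.10%). Of the 30 tested genes, 20 were at or under 3 counts in both TKO EpiLC libraries and were tested only through other groups. For these 20 the absence of a fall was set in advance, and the shares that rose depend in part on the count requirement. In either direction 8.62% and 9.03% of all tested genes were called. The 2 comparisons share the EpiLC libraries. Hoxa10 rose from 0.992 and 0 to 87.2 and 32.8 without cytokines (at least 19.1-fold higher, adjusted p = 5.88e-04) and to 80.6 and 71.2 with them (at least 24.2-fold higher, adjusted p = 2.87e-04). Hoxb2 was listed at 0 in both TKO EpiLC libraries and reached 60.3 and 51.7 (at least 17.9-fold higher, adjusted p = 1.85e-04) and 55.4 and 33.3 (at least 14.1-fold higher, adjusted p = 2.52e-04). Some genes were near their day 6 level by day 2 and others were not. Hoxa5 was at 96.5 and 49.3 at day 2 and 67.8 and 66.9 at day 6 without cytokines, with overlapping libraries, whereas Hoxa10 was at 5.19 and 1.20 at day 2 and 87.2 and 32.8 at day 6, and Hoxd11 at 4.15 and 1.20 and then 23.7 and 16.4. The count of 21 was 13 without TKO EpiLC replicate 2.

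No Hox gene passed the test for cytokines in TKO aggregates. At day 2, 0 of the 30 tested were called (1.58% of all tested genes, 0.157% higher and 1.42% lower), with 2 at an unadjusted p under 0.05, and at day 6, 0 were called (1.86%, 0.241% higher and 1.62% lower), with 3 at that level. DESeq2 also called 0 at both times, and a fit of only the groups compared called 1 at day 6. The nearest at day 6 were Hoxb13, at 55.4 and 42.5 with cytokines against 10.8 and 8.83 without (log2 fold change 2.31 ± 0.68 (SE), adjusted p = 0.0622), and Hoxd13, at 70.6 and 97.6 against 32.3 and 26.5 (log2 fold change 1.53 ± 0.63 (SE), adjusted p = 0.163). For both genes the libraries with cytokines lay above those without, and missing the threshold does not show that the groups were alike. Fitted log2 fold changes at day 6 were positive for 11 of 11 tested posterior genes and negative for 7 of 8 anterior genes, given as a description with no test. The summed posterior level was 598 and 584 with cytokines and 422 and 245 without, and the summed anterior level 270.4 and 282 and 429 and 347. The difference between the genotypes in their response to cytokines at day 6 was tested directly as an interaction, which called 14 Hox genes (22.4% of all tested genes, 10.5% higher and 11.8% lower): 6 paralog 1 to 4 genes of clusters a and b with a more positive response in TKO, and 8 genes (Hoxa5, Hoxa9, Hoxa10, Hoxb9, Hoxc4, Hoxc13, Hoxd9 and Hoxd11) with a less positive one. The interaction of genotype with time from EpiLCs to day 6 without cytokines called 9 (18.6%, 10.1% higher and 8.54% lower), with a less positive change in TKO for Hoxa2 and Hoxb1 and a more positive one for Hoxd8 and 6 posterior genes, of which Hoxb9, Hoxc13 and Hoxd13 had fallen in wild type. The count of 14 was 9 without replicate 1 of either genotype's day 6 aggregates without cytokines, and the count of 9 was 4 without wild-type EpiLC replicate 1.

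Per kilobase, the genes at the top in TKO aggregates with cytokines at day 6 included, in order, Hoxd9 (41.9 and 44 normalised counts per kb), Hoxb9 (33.3 and 36.1), Hoxd13 (28.4 and 39.3), Hoxa5 (30.6 and 33.1) and Hoxc13 (31.3 and 31.4). Hoxd9 lay above Hoxb9 in both libraries, and from Hoxb9 on each gene overlapped with the next. All were far below Hoxb2 in wild-type aggregates at day 6 without cytokines (522 and 566).

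The summed level of the 1132 olfactory receptor genes (Olfr), which these tissues are not known to use, was 172 and 129.5 in wild-type EpiLCs, 88.7 and 51.3 at day 2 and 84.8 and 37.1 at day 6 without cytokines, and 152 and 169 with them. In TKO it was 175 and 236 in EpiLCs, 444 and 309 at day 2 without cytokines and 169 and 166 with them, then 474 and 447 at day 6 without cytokines and 450.2 and 599 with them. The list was chosen after the data were seen. The summed Hox levels of the TKO aggregates were 596 and 529 at day 2 without cytokines and 708 and 576 with them. At day 6 they were 1192 and 878 without cytokines and 1211 and 1145 with them. The part of a broad rise of silent genes in the TKO Hox counts was not tested. Germ cell markers (Prdm1, Prdm14, Tfap2c, Nanos3, Dppa3) summed to 8349 and 6666 in wild-type cells with cytokines, 3032 and 3199 in TKO day 6 aggregates without cytokines, 2879 and 3528 in those with them, and 92.9 and 96.1 in wild-type aggregates without cytokines. Endoderm markers (Sox17, Foxa2, Gata4, Gata6) summed to 416 and 275 in TKO at day 6 without cytokines against 73.9 and 9.26 in wild type, and to 445 and 538 against 75.1 and 117 with cytokines. The 6 mesoderm markers (Foxc2, Hand1, Kdr, Meox1, Mesp1, Tbx6) summed to 332 and 242 against 97.9 and 115 without cytokines and 294 and 202 against 52.8 and 153 with them. The part of both lists in the central and posterior Hox levels was not tested.

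The TALE homeodomain factors (Pbx, Meis and Pknox, 9 genes) are the DNA-binding partners of Hox proteins. In wild type, 6 were called higher and none lower from EpiLCs to day 6 without cytokines (16.4% of all tested genes were called higher), but 1 was higher and none lower from day 2 to day 6 (8.51% higher). With against without cytokines, 6 were lower and none higher in wild type (14% lower). In TKO against wild type at day 6, 4 were lower and none higher without cytokines (9.46% lower), and none was called in either direction with them (5.57% in either direction), where the median log2 fold change of the list was 0.03. The lists are described by counts, and for wild-type day 6 against EpiLCs, wild type with against without cytokines, and TKO against wild type without cytokines their medians were 2.50, -3.43 and -1.98, against 0.05, 0.01 and 0.01 over all tested genes. Meis1 went from 3.21 and 0.556 to 2699 and 2040.5 in wild type (at least 731-fold higher, adjusted p = 6.88e-08) and was at 242 and 179 in TKO (log2 fold change -3.47 ± 0.51 (SE), adjusted p = 4.45e-05). Meis2 went from 11.2 and 6.67 to 5763 and 2564 (log2 fold change 8.99 ± 0.44 (SE), adjusted p = 1.14e-09) and was at 963 and 755 in TKO (log2 fold change -2.26 ± 0.29 (SE), adjusted p = 1.24e-05). Within TKO, 3 of the 9, Meis1, Meis2 and Meis3, also rose from EpiLCs to day 6, both without (7.77% of all tested genes higher) and with cytokines (6.93%).

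Of the retinoic acid pathway (10 genes), 4 were higher and none lower than in EpiLCs at day 2 in wild type without cytokines (6.80% and 4.67% of all tested genes), and at day 6 without cytokines TKO had 4 higher and 3 lower than wild type (14.4% and 9.46%). Cyp26a1, which degrades retinoic acid, peaked at 673 and 493 in wild type at day 2 and was at 1.81 and 6.95 at day 6, while TKO had 70.6 and 111 and then 292 and 278 (log2 fold change 6.31 ± 0.64 (SE), adjusted p = 1.13e-06 at day 6). Cyp26b1 was at 5879 and 1209 in wild type at day 6 and 18.3 and 12.6 in TKO (log2 fold change -7.80 ± 0.86 (SE), adjusted p = 2.48e-06). The retinoid carriers Crabp1 (log2 fold change -5.73 ± 0.46 (SE), adjusted p = 9.42e-08) and Crabp2 (log2 fold change -5.23 ± 0.37 (SE), adjusted p = 2.50e-08) were lower in TKO, and Rarg, a retinoic acid receptor, was higher (2324 and 2564 against 41.7 and 34.7; log2 fold change 5.99 ± 0.25 (SE), adjusted p = 4.71e-10). Of 5 hindbrain segmentation genes, Egr2, which marks alternating hindbrain segments, was at 401 and 91.7 in wild type at day 2 and 2.08 and 6.01 in TKO (log2 fold change -5.94 ± 0.87 (SE), adjusted p = 1.21e-04). Over the 5, TKO had 2 higher and 2 lower at day 6 without cytokines, against the same 14.4% and 9.46%.

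Among 9 Cdx and posterior axis genes, of which 8 were tested, Cdx1 was at 42.4 and 165 in wild type with cytokines and 0.907 and 0 without (at least 43-fold higher, adjusted p = 1.18e-04), and at 32.3 and 12.6 in TKO without cytokines (at least 9.29-fold higher, adjusted p = 0.00369). Cdx2 was at 53.5 and 19.9 in wild type with cytokines, at 0.907 and 0 without, and at 23.7 and 10.1 in TKO without cytokines. With cytokines TKO had Cdx1 at 62.2 and 23 and Cdx2 at 20.2 and 11.5. The part of the Cdx genes in the posterior Hox levels was not tested. Over the list, TKO at day 6 without cytokines had 3 genes higher and 4 lower than wild type (14.4% and 9.46% of all tested genes). Of the homeobox genes beside the clusters, Evx1, next to Hoxa13, was at 402 and 175 and Evx2, next to Hoxd13, at 269 and 41.7 in wild type at day 6 without cytokines, where Hoxa13 was at 0 and 1.2 and Hoxd13 at 3.63 and 0. In TKO Evx1 was at 23.7 and 20.2 (log2 fold change -3.69 ± 0.55 (SE), adjusted p = 6.10e-05) and Evx2 at 2.15 and 0 (at least 44.3-fold lower, adjusted p = 0.00109). Over this list of 6, which also holds Gsx1, Gsx2, Mnx1 and Pdx1, 2 were higher and 3 lower in TKO, with the same shares over all genes.

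Of 16 noncoding RNAs of the clusters 5 were tested, and 2 were higher and 2 lower in TKO at day 6 without cytokines, where 14.4% of all tested genes were higher and 9.46% lower. Hoxaas2, antisense within the anterior Hoxa region, was at 942 and 825 in wild type at day 6 without cytokines and 5.38 and 7.57 in TKO (log2 fold change -7.06 ± 0.58 (SE), adjusted p = 4.25e-07), and Hoxb3os at 216 and 195 against 7.54 and 8.83 (log2 fold change -4.62 ± 0.71 (SE), adjusted p = 1.56e-04). Halr1 behaved otherwise, at 195 and 216 in wild type with cytokines, 2.72 and 0 without and 196 and 158 in TKO without cytokines (log2 fold change 6.52 ± 0.79 (SE), adjusted p = 6.51e-06). Mir196a-1, the primary microRNA locus beside Hoxb9, was at 17.2 and 13.9 in TKO against 0 in both libraries (at least 6.44-fold higher, adjusted p = 4.29e-05). The counting command lines set no strand option. Exons of Hoxa3 and Hoxa11 share 18% and 24.8% of their bases with antisense genes (Hoxaas2 with Hoxaas3, and Hoxa11os), so reads of these pairs could be lost or could not be told apart. Of 14 chromatin regulators of the clusters (Polycomb and Trithorax genes), 1 was called in TKO against wild type at day 6 without cytokines, where 23.8% of all tested genes were called: Cbx7, a Polycomb reader, at 2215 and 2094 against 161 and 56.7 (log2 fold change 4.26 ± 0.33 (SE), adjusted p = 6.08e-08). None of the 14 was called at day 2 (12.5% of all tested genes) or, with cytokines, at day 6 (5.57%).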

How the data were processed

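RNA-seq libraries were made from total RNA after ribosomal RNA depletion with a directional kit. Per the labels and the study's methods, the authors trimmed reads with Trim Galore 0.5.0 and cutadapt 1.16, aligned them to mm10 with STAR 2.7.1a, and counted fragments over RefSeq gene exons with featureCounts (Subread 1.5.2). Command lines kept in the deposited table, as 33 rows without values that were left out here, cover wild-type and TKO libraries among others and set no option for strand or multi-mapping reads, so by default strand was ignored and multi-mapping or multi-overlapping fragments were not counted. The deposited counts per gene were used as they stand, with no other columns.

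Counts were fitted in R 4.3.3 with edgeR 4.0.16 (TMM factors, filterByExpr by group, quasi-likelihood test, 1 model of 9 group means over 18 libraries). Normalised counts used size factors of DESeq2 1.42.0. The p-values were adjusted over all tested genes, and the test was tried on simulated data. Each comparison was repeated with DESeq2, other normalisations, filters and thresholds, a model of the compared groups, a replicate block and each library left out. With a library left out, its group kept 1 library and the spread came from the other groups. Genes with values by library were the 8 of highest mean, the highest of each cluster, class and group, up to 6 with the largest change called in each genotype comparison and in the cytokine comparisons within TKO, and any gene that changed direction between genotype comparisons. Others named are marker, pathway or neighbouring genes, or genes that show where a call was missed. Members and lists were chosen with earlier results of these data known. Gene coordinates and lengths came from GENCODE M21 and promoter windows from RefSeq. Stem cells and wild-type day 2 aggregates with cytokines were not analysed here. A few genes that entered the counts and sums are not reported here by name.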

Additional observations from a re-analysis of the deposited data

Results flagged for a closer look

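The change from EpiLCs to day 6 without cytokines differed between genotypes for 9 Hox genes by the interaction term of the edgeR fit. The values are differences of log2 fold changes, TKO minus wild type. They were -4.73 for Hoxa2 and -5.59 for Hoxb1, which rose far more in wild type. They were 8.81 for Hoxa10, 5.74 for Hoxb9, 6.03 for Hoxc13, 8.90 for Hoxd8, 9.70 for Hoxd11, 9.42 for Hoxd12 and 4.31 for Hoxd13. Several of these genes were at or near 0 in wild type, so the sizes depend on the prior count and are not bounds. Without wild-type EpiLC replicate 1 the count was 4.

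The response to cytokines at day 6 differed between genotypes for 14 Hox genes by the same kind of test. The difference was 8.51 for Hoxa2, 3.64 for Hoxa3, 7.35 for Hoxb1, 7.77 for Hoxb2, 7.55 for Hoxb3 and 3.34 for Hoxb4, which were lower with cytokines in wild type. It was -2.28 for Hoxa5, -6.03 for Hoxa9, -5.22 for Hoxa10, -4.91 for Hoxb9, -3.07 for Hoxc4, -5.17 for Hoxc13, -5.10 for Hoxd9 and -4.52 for Hoxd11, which were higher with cytokines in wild type. Of these 8 genes, all but Hoxa5 had a mean under the floor of 3 counts per library in wild type without cytokines, so these sizes too depend on the prior count and are not bounds. The wild-type cells with cytokines were sorted and the other groups were not, so sorting and the cytokine response cannot be told apart here. The count was 9 without wild-type day 6 replicate 1 without cytokines and 9 without the matching TKO replicate 1.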

How the results depend on the processing

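Of the 184 pairs of a Hox gene and a comparison that called it, none reversed direction under the alternatives that gave it a value, which were all 184 except 112 with a mean CPM of 1 or more and 177 with Rn45s left out. Genes named without a call are not in this tally. Calls were lost in 13 pairs with DESeq2, 26 when only the compared groups were fitted, 5 with library size alone, 3 with no filter, 1 with RLE factors and 1 with the replicate block. Leaving out 1 library lost the call in 212 refitted pairs and kept it in 616. The number of Hox genes called moved by over 1.5 times as follows. At an adjusted p below 0.01 it was 9 for wild-type day 6 without cytokines against EpiLCs, 5 for wild type with cytokines against EpiLCs, 12 for wild type with against without cytokines, 7 for TKO against wild type with cytokines, and 3 and 8 for the time and cytokine interactions. With the higher group detected, an alternative chosen after seeing the data, the first 3 were 7, 2 and 8, and TKO against wild-type EpiLCs was 0. With only the compared groups fitted, wild-type day 6 against EpiLCs was 7, wild type with against without cytokines 11, and TKO with against without cytokines at day 6 was 1. With a mean CPM of 1 or more, which leaves fewer Hox genes to test, wild type with against without cytokines was 12, TKO against wild type was 0 in EpiLCs, 7 at day 2, 11 at day 6 without and 9 with cytokines, and TKO day 6 against EpiLCs was 12 without and 12 with cytokines. TKO against wild-type EpiLCs was 5 with library size alone and 2 with DESeq2. Detected genes at a limit of 5 were 2 in wild-type EpiLCs, 9 in wild type with cytokines, 5 in TKO EpiLCs, and 16 and 21 in TKO day 2 without and with cytokines. At a limit of 20 they were 0 in both EpiLC groups and 5 in TKO day 2 with cytokines. By the mean of both libraries they were 6 in wild type with cytokines, 4 in TKO EpiLCs and 17 in TKO day 2 with cytokines, and TMM sizes gave 4 in TKO EpiLCs. Where no cause is given, the cause was not tested.

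With 1 library left out, the calls ranged from 4 to 8 for wild-type day 6 against day 2, 9 to 14 for day 6 against EpiLCs, 2 to 10 for wild type with cytokines against EpiLCs and 14 to 17 against no cytokines. For TKO against wild type they ranged from 0 to 3 in EpiLCs, 7 to 11 at day 2, and 4 to 15 at day 6 with cytokines, and were 24 at day 6 without. TKO day 6 against EpiLCs ranged from 13 to 17 without cytokines and 16 to 21 with them, and the interactions from 4 to 10 and 9 to 11. Detected genes ranged from 6 to 10 and 4 to 7 in wild type at day 6 without and with cytokines, 3 to 5 in TKO EpiLCs, and 13 to 18 in TKO day 2 with cytokines. Correlations of same-numbered libraries between groups, taken as deviations from the group means, ran from -0.16 to 0.18 over 36 pairs of groups. Of these, 7 were above 0.1. With 2 libraries in a group, this cannot settle whether the replicate numbers paired the samples. A replicate block gave 24 calls for TKO against wild type at day 6 without cytokines, 12 at day 2 and 18 at day 6 with cytokines, and moved no count by over 1.5 times. Genes with a few counts per library set the limit of what these depths show.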
